A study of Homo sapiens with 6 samples.

Results

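A group of 10 genes of the classical antiviral interferon response, IFI6, IFI27, IFI35, IFI44, IFI44L, MX1, MX2, RSAD2, CMPK2 and BST2, were examined in HCT116 human colorectal cancer cells in which the RNA-binding protein NONO had been knocked down. The genes were selected by name, on measured values: earlier results of the siNONO against siControl contrast in these same libraries were known when they were chosen. Their difference in that contrast is therefore given as a description, with no test. All 10 of the 10 were found among the 62492 genes listed and all 10 were among the 17000 genes tested. Of these, 3 (IFI44L, MX2 and RSAD2) had under 10 counts in every siControl library, so that they entered the tested genes through their siNONO values.

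PolyA RNA was sequenced in 6 libraries, 3 from cells given a control siRNA (siControl) and 3 from cells given an siRNA against NONO (siNONO). All cells carried wild-type NONO, and both siRNAs were delivered at 20 nM with a lipid reagent. Each library belongs to Set 1, Set 2 or Set 3, and a Set holds a siControl and a siNONO library. The siNONO libraries came from 1 siRNA duplex, so that loss of NONO and other effects of that duplex cannot be told apart. Nothing in the labels says whether Sets were separate cultures, and the spread between libraries may be technical.

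Interferons are secreted proteins that cells release after sensing foreign or misplaced nucleic acid. They bind surface receptors whose kinases, JAK1 and TYK2, activate transcription factors. A complex of these, which holds STAT2 and IRF9, binds interferon-stimulated response elements (ISREs) in promoters and raises the transcription of many genes. The 10 genes described here are among the best known of those targets in epithelial cells. They act at separate steps of infection: on the entry and uncoating of viruses (MX1 and MX2), on genome replication (RSAD2, IFI6) and on the release of particles (BST2).

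Promoter sequences are shown first because the ISRE letters are the feature by which these genes are usually grouped. RefSeq promoters (250 bases before to 50 after a start, of assembly GRCh38.p14) were available for 9 of the 10 genes, and each was placed on GRCh37, the build of the files, by an exact match. The letters GAAANNGAAA, read on either strand, occurred in promoters of 7 of these 9 genes, against 4.38% of 27305 genes in the table and 3.57% of 35116 promoters. A gene was counted if any of its listed promoters held a match, and some, such as MX1 and CMPK2, have several. RSAD2 was counted only through its second start. As the genes were chosen as known interferon targets, nothing is read from this count or from those of other letters below. The capitals below mark every such match, and each line is read 5′ to 3′ on the gene's own strand, so that TTTC at both ends of the capitals is a match on the other strand.

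IFI6, chr1:27998777-27998869, minus strand: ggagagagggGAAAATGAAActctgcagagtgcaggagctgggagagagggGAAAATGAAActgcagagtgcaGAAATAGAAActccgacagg
IFI27, chr14:94576964-94577006, plus strand: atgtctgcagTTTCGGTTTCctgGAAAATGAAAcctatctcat
IFI44, chr1:79115446-79115475, plus strand: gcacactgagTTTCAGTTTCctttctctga
IFI44L, chr1:79085959-79086079, plus strand: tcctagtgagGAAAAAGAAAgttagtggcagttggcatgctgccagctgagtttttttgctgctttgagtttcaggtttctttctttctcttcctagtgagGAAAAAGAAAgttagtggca
BST2, chr19:17516547-17516576, minus strand: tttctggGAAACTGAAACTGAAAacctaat
RSAD2, second start, chr2:7017753-7017782, plus strand: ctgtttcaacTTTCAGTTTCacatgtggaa
MX1, first start, chr21:42792486-42792515, plus strand: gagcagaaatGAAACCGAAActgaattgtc
MX1, last listed start, chr21:42803771-42803800, plus strand: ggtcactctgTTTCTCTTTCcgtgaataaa

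IFI6 held 3 matches, the most of the 9 genes, with first bases at positions -156, -115 and -93 from the start (position 1 is the start itself). IFI44L held 2, at -164 and -73, and the same 30 bases stand at both ends of the stretch printed. IFI27 held 2, at -108 and -95, on opposite strands. BST2 held 2 at -130 and -124, which overlap. IFI44 held 1, at -18 from its first start, and RSAD2 held 1, at -145 from its second start. MX1 held 1 at position 12, past its first start, and 1 before its last listed start. The annotation places the IFI27 stretch and that of the last listed MX1 start in introns of those genes, the stretch of the second RSAD2 start and that of the first MX1 start in untranslated exons, and the BST2 stretch in exons of BISPR and MVB12A on the other strand. The last 13 bases of the IFI44L stretch lie in an untranslated exon of an IFI44L transcript. All 93 bases of the IFI6 stretch lie within ENSG00000225886, a noncoding RNA gene on the plus strand. The longer form GAAANNGAAACT occurred in 5 of the 9 genes (BST2, IFI27, IFI44, IFI6 and MX1), against 0.322% of genes. The letters TTCNNNGAA, those of gamma-activated sites, occurred in 4 (BST2, IFI27, IFI35 and MX1), against 9.38% of genes. This count is not separate from that of GAAANNGAAA. The IFI27 and MX1 matches overlap matches to those letters, as does the BST2 match at -136 but not that at -58.

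CMPK2 and IFI35 held no match to GAAANNGAAA, which says only that these letters are not in these windows. CMPK2 and RSAD2 lie head to head on opposite strands of chromosome 2. Their first listed starts that share promoter bases are 66 bases apart, and those promoters share 165 bases. This stretch was seen to hold a shorter spacing, and GAAANGAAA was then searched. It occurred 4 times in the promoter of the first RSAD2 start, and in 5 of the 9 genes (CMPK2, IFI35, IFI44, MX1 and RSAD2), against 3.87% of genes. Nothing is read from this count: CMPK2 and RSAD2 hold the letters by choice, since the letters were taken from their shared stretch. The CMPK2 matches lie on the same bases as RSAD2 matches. In IFI44 and MX1 a match overlaps a GAAANNGAAA match. The copy that lies between those starts falls in untranslated exons of RSAD2 and CMPK2 transcripts. It is shown with the match in capitals, on the RSAD2 strand.

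CMPK2 and RSAD2, chr2:7005946-7005975, plus strand: gcgttgcgggGAAACGAAAgccggaggccc

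The libraries held between 21765393 and 32659002 counts. NONO itself had 496, 495 and 516 counts per 1000000 (CPM) in siControl Sets 1 to 3 and 89.5, 95.5 and 100 in siNONO, so that 18.9% was left (log2 fold change -2.40 ± 0.0337 SE; edgeR adjusted p = 2.47e-13). Of 7 epithelial markers, 6 reached 1 transcript per 1000000 (TPM) in every library, and VIL1 did not; their sum was 2880 to 3014 TPM in siControl and 2720 to 3010 TPM in siNONO. Of 6 leukocyte markers 0 reached it in every library, and their summed level stayed between 0.38 and 1.17 TPM over all libraries. In siControl that sum was between 0.47 and 0.89 TPM. The 2 endothelial markers found summed to between 0.17 and 0.34 TPM. Of 4 fibroblast markers 1, COL1A1, reached 1 TPM in every library, while COL1A2 was at 0 in all. The fibroblast sum was 16.4 to 19 TPM in siControl and 16.2 to 18.3 TPM in siNONO.

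TPM, which corrects for transcript length and so can be compared between genes, put the 10 genes over a wide range. In siNONO cells the order of mean levels was IFI6 (415 ± 110 TPM, SD, n = 3 here and for the means that follow), IFI27 (81.8 ± 22.7), IFI35 (43.2 ± 7.41), IFI44 (26.0 ± 4.51), BST2 (21.2 ± 4.36), CMPK2 (6.51 ± 1.08), IFI44L (2.44 ± 0.341), MX1 (2.29 ± 0.215), RSAD2 (1.34 ± 0.489) and MX2 (0.373 ± 0.130). Neighbours IFI44 and BST2 lay within their spread of each other, as did IFI44L and MX1. In siControl cells the order was IFI6 (28.3 ± 3.51 TPM), IFI35 (9.61 ± 1.54), BST2 (4.92 ± 0.277), IFI27 (3.33 ± 1.13), IFI44 (1.97 ± 0.39), CMPK2 (1.42 ± 0.729), MX1 (1.34 ± 1.27), RSAD2 (0.08 ± 0.0436), IFI44L (0.0633 ± 0.0252) and MX2 at 0. IFI44, CMPK2 and MX1 lay within their spread of each other in siControl, and so did RSAD2 and IFI44L. IFI27 moved from the fourth place in siControl to the second in siNONO.

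**Figure D1:**
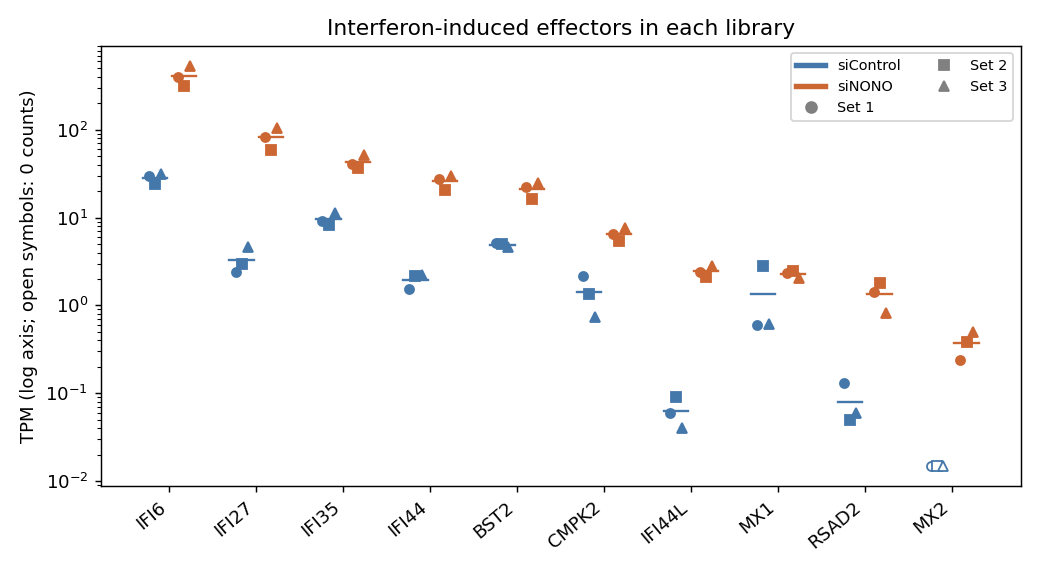
Level of each gene in TPM (vertical log axis) in each of the 6 libraries, ordered by mean siNONO level; symbols mark Sets, horizontal bars the means, and open symbols 0 counts. The groups are apart for 9 genes, and overlap for MX1, whose siControl library of Set 2 stands at 2.80 TPM.

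The summed level of the 10 genes was 50.9, 47.1 and 55.2 TPM in siControl and 582, 462 and 757 TPM in siNONO. IFI6 made up most of the sum in each library. Its share was 58.2%, 51.7% and 56.2% in siControl and 67.9%, 68.6% and 70.5% in siNONO. By mean TPM, IFI6 ranked 5095 among all genes listed in siControl and 244 in siNONO. In a bulk library, fewer cells expressing a gene and less RNA of it per cell cannot be told apart.

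IFI6 (ENSG00000126709, chr1:27992575-27998723, minus strand) encodes a small hydrophobic protein of intracellular membranes that hinders the replication of flaviviruses. It had 12.7, 10.7 and 13.5 CPM in siControl Sets 1 to 3 and 179, 149 and 245 CPM in siNONO. The groups did not overlap, and siNONO Set 3 was the highest library. The ratio of means was 15.5, and the log2 fold change was 3.93 ± 0.062 (SE). With 419, 294 and 296 counts in siControl, IFI6 was the most deeply counted of the 10 genes, and counting error alone put the ratio of its counts between 14.6 and 16.6 (95% interval, which covers counting error only, here and below).

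IFI27 (ENSG00000165949, chr14:94571182-94583032, plus strand) belongs to the same protein family as IFI6. Its level was 1.61, 1.61 and 2.19 CPM in siControl and 27.7, 21.5 and 33.5 CPM in siNONO. The lowest siNONO library was thus well above the highest siControl library. The ratio of mean CPM was 15.3 and the log2 fold change 3.94 ± 0.094 (SE), close to those of IFI6 on this scale. In TPM the levels were 2.41, 2.98 and 4.59 in siControl and 83.1, 58.6 and 104 in siNONO, a ratio of 24.6. For IFI6 the ratio in TPM was 14.6.

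BST2 (ENSG00000130303, chr19:17513748-17516439, minus strand) encodes tetherin, a surface protein that holds budding virus particles on the cell. It had 2.85, 2.92 and 2.60 CPM in siControl and 13.1, 10.1 and 14.9 CPM in siNONO. The siControl libraries were close together, and the siNONO libraries were all higher. Its log2 fold change was 2.16 ± 0.128 (SE), within the error of those of MX1 and IFI35. The ratio was 4.56 in mean CPM and 4.3 in mean TPM.

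The MX genes lie side by side on chromosome 21 and encode dynamin-like GTPases that trap incoming viral particles or genomes. MX1 (ENSG00000157601, chr21:42791947-42841998, plus strand) had 0.759, 1.17 and 0.775 CPM in siControl and 4.33, 4.49 and 3.54 CPM in siNONO. Its groups did not overlap in CPM, with a log2 fold change of 2.21 ± 0.201 (SE). In TPM MX1 had 0.60, 2.80 and 0.61 in siControl and 2.34, 2.47 and 2.05 in siNONO. The siControl library of Set 2 was above every siNONO library on that scale, and MX1 was the only gene of the 10 whose groups overlapped in TPM. The ratio of mean TPM was 1.71 with all libraries and 3.78 without siControl Set 2, a comparison added after these values had been seen.

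MX2 (ENSG00000183486, chr21:42733926-42781320, plus strand), whose product acts on HIV-1 at the nuclear pore, was at 0 counts in every siControl library and had 14, 20 and 28 counts in siNONO Sets 1 to 3. In CPM the siNONO levels were 0.489, 0.719 and 1.0. MX2 was at least 20.2-fold higher in siNONO, taking a floor of 3 counts over the whole siControl group. This bound takes the siNONO counts as exact and leaves out their counting error. The fitted log2 fold change, 7.30 ± 0.915 (SE), depends on the prior count and is no bound.

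RSAD2 and CMPK2 share their locus and a pathway. CMPK2 is a nucleotide kinase of mitochondria whose product feeds CTP, and RSAD2 (viperin) turns CTP into a chain-terminating nucleotide. CMPK2 (ENSG00000134326, chr2:6980701-7006766, minus strand) had 1.85, 1.61 and 0.775 CPM in siControl and 10.6, 9.53 and 11.9 CPM in siNONO. siControl Set 3 was the lowest, with 17 counts against 61 and 44 in the others. The log2 fold change was 2.86 ± 0.195 (SE), with differences of 2.50, 2.55 and 3.92 within Sets 1 to 3. Without siControl Set 3 it was 2.54.

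RSAD2 (ENSG00000134321, chr2:7005688-7038370, plus strand) had 2, 3 and 3 counts in the siControl libraries and 51, 65 and 47 counts in the siNONO libraries. These are 0.0607, 0.11 and 0.137 CPM and 1.78, 2.34 and 1.68 CPM. The groups were far apart, while the siControl level rests on 8 counts in all. The ratio of counts, scaled for library size, was 19.9, with a 95% counting interval of 9.85 to 46.8. The log2 fold change was 4.24 ± 0.386 (SE). In siNONO cells RSAD2 was below CMPK2 in TPM in every Set: 1.41, 1.79 and 0.82 TPM against 6.48, 5.44 and 7.6 TPM. CMPK2 and RSAD2 overlap at their annotated 5′ ends. The libraries were stranded, but the strand setting of the counting is not given in the sources used here. Whether their counts share reads at these ends is therefore not known.

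IFI44 and IFI44L are neighbouring paralogues on chromosome 1 that encode cytoplasmic proteins. IFI44 (ENSG00000137965, chr1:79115481-79129763, plus strand) had 0.91, 1.24 and 1.18 CPM in siControl and 19.0, 16.4 and 20.2 CPM in siNONO. Its log2 fold change was 4.06 ± 0.125 (SE), and the ratio of means 16.6. IFI44L (ENSG00000137959, chr1:79085587-79111830, plus strand) had 8, 7 and 3 counts in the siControl libraries against 238, 211 and 252 in siNONO. In CPM IFI44L was at 0.243, 0.256 and 0.137 in siControl and 8.32, 7.59 and 9.01 in siNONO. Its log2 fold change of 5.22 ± 0.218 (SE) was the highest of the genes with siControl counts. In siNONO cells IFI44L was the lower of the pair in TPM, at 2.41, 2.12 and 2.8 against 27.4, 20.9 and 29.6 for IFI44.

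IFI35 (ENSG00000068079, chr17:41158757-41166473, plus strand) encodes a leucine zipper protein that pairs with NMI. It had 6.22, 5.7 and 6.29 CPM in siControl and 28.4, 24.9 and 35.2 CPM in siNONO. The log2 fold change was 2.26 ± 0.0789 (SE), and the ratio 4.86 in mean CPM and 4.49 in mean TPM. IFI35 was second only to IFI6 in siControl TPM but, with MX1 and BST2, was among the 3 genes with the smallest fold changes on the count scale.

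**Figure D2:**
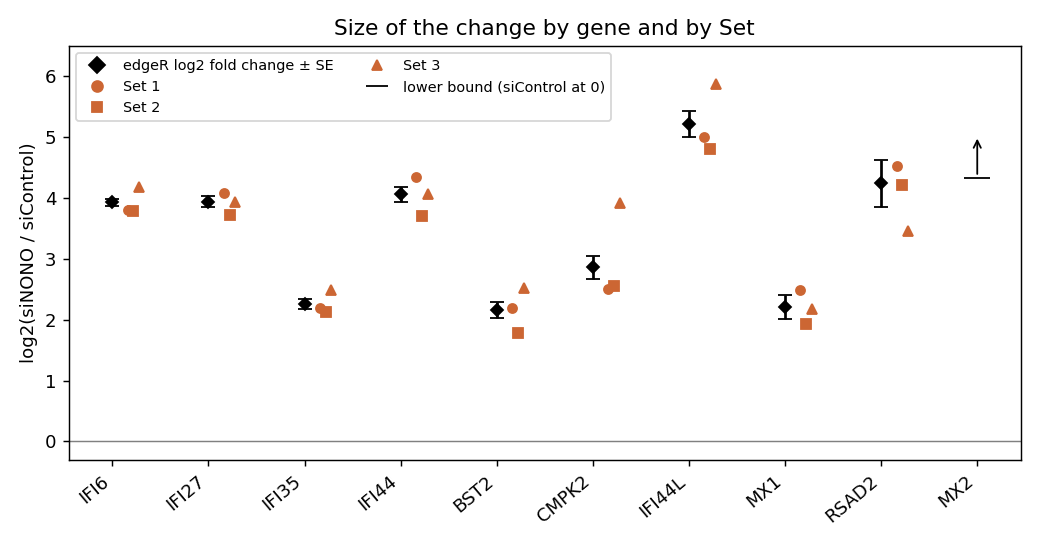
Log2 ratio of siNONO to siControl for each gene (vertical axis): diamonds with bars are the edgeR estimate and an SE back-calculated from its F statistic, coloured symbols the difference within each Set in log2 CPM, and the bar with an arrow the lower bound for MX2. IFI35, MX1 and BST2 lie between 2.16 and 2.26, and IFI44L is at 5.22; the bound does not place MX2 above or below it.

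Across the 10 genes the median log2 fold change was 3.93, and it was 3.93 with MX2 at its bound, beside a median of -0.0048 over all 17000 genes tested. All 10 had a fitted value of 1 or more, a size reached by 1.78% of genes tested. All 10 had every siNONO library above every siControl library in CPM, as did 23.9% of genes tested. Nothing is read from these counts, since the genes were selected on this contrast. Of the 10, 6 reached a log2 fold change of 3 and 4 reached 4. Ranked by log2 fold change among all genes tested, those with siControl counts stood between place 9 (IFI44L) and place 59 (BST2), with RSAD2 at 12, IFI44 at 13, IFI27 at 15, IFI6 at 16, CMPK2 at 28, IFI35 at 50 and MX1 at 54.

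Among the siNONO libraries, most of the genes were ordered alike. In CPM 8 of the 10 were highest in Set 3 and 7 were lowest in Set 2. The shares of all genes tested with these traits were not counted, so nothing is read from either number. The order Set 3, Set 1, Set 2 was shared by 7 (IFI6, IFI27, IFI35, IFI44, IFI44L, CMPK2 and BST2), beside 17.6% of all genes tested. MX1 and RSAD2 instead had the order Set 2, Set 1, Set 3, and MX2 the order Set 3, Set 2, Set 1. The median difference over the 10 genes was 3.95, 3.71 and 3.92 in log2 CPM within Sets 1, 2 and 3. These points share libraries, and no test was made of the order.

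RSEM also reports for each gene a mean transcript length, weighted by the estimated share of each isoform, a measure that the choice of the genes did not use directly. The groups did not overlap in 5 of the 10 genes, beside 11.3% of all genes tested, and 1 of these is void: MX2 has only a default length in siControl, where it had no reads. IFI44, MX1 and CMPK2 were longer in siNONO, and IFI27 was shorter. CMPK2 was at 1409, 1865 and 1686 bases in siControl and 2393, 2479 and 2292 bases in siNONO. IFI27 was at 1152, 951 and 877 bases in siControl and 654, 680 and 633 bases in siNONO, and TPM divides by this length. MX1 was at 1991, 776 and 2016 bases in siControl and 2696, 2564 and 2500 in siNONO. The low value of siControl Set 2 is the library in which MX1 had its high TPM.

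IFI44 was at 1054, 1008 and 952 bases in siControl and 1136, 1219 and 1111 bases in siNONO. Lengths of IFI6 and BST2 were the same in both groups within 2 bases, and those of IFI35, IFI44L and RSAD2 overlapped between groups. The isoform shares in siControl rest on few reads: between 17 and 32 counts a library for MX1, 26 to 34 for IFI44, 17 to 61 for CMPK2 and 44 to 53 for IFI27. With so few reads, isoform assignment is uncertain, and the part of that uncertainty in these differences was not tested.

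**Figure D3:**
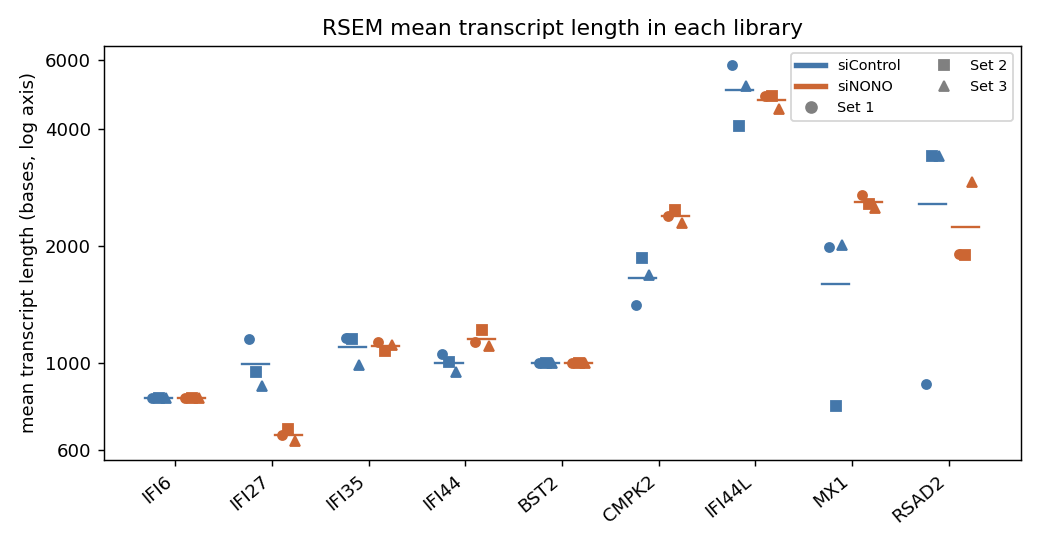
RSEM mean transcript length in bases (vertical log axis) of 9 genes in each library; MX2, without reads in siControl, is left out, and horizontal bars are means. CMPK2, IFI44 and MX1 lie higher in siNONO, IFI27 lower, and IFI6 and BST2 do not move.

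The interferon pathway that acts on these genes was read from a list of 19 signalling genes, of which 18 were tested. In edgeR 10 rose, beside 23.2% of all genes tested that were higher, and 2 fell, beside 23.4% that were lower. The other 6 did not pass, and the median log2 fold change was 0.26. IFNL1, IFNL2 and IFNL3, 3 of those that rose, had at most 1 count in siControl and entered the tested genes through siNONO. Where at least 10 counts were required in every library, 7 of 15 rose and 2 fell. This list, too, was chosen with results of this contrast known, and nothing is read from its count. Among the transcription factors that bind the ISREs, IRF9 rose by 2.05 ± 0.0551 (log2, SE; adjusted p = 4.29e-11) and STAT2 by 0.92 (adjusted p = 6.69e-09). IRF7, a factor that drives interferon genes and is itself a target, rose by 3.14 (adjusted p = 2.68e-11), while IRF1 rose by 0.31 (adjusted p = 0.000746) and IRF3 was at 0.03 (adjusted p = 0.614).

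Receptor and kinase genes had log2 fold changes between -0.27 and 0.20. IFNAR1, a chain of the type I receptor, fell by 0.27 (adjusted p = 0.000311), and IFNAR2, IFNLR1 and IL10RB did not pass, with log2 fold changes of 0.12, 0.02 and 0.08. JAK1 was at 0.02 (adjusted p = 0.681) and TYK2 rose by 0.20 (adjusted p = 0.00313). Of the inhibitors of the pathway USP18, also an interferon target, rose by 2.27 (adjusted p = 2.09e-10), SOCS3 fell by 0.39 (adjusted p = 0.00017) and SOCS1 did not pass (adjusted p = 0.316).

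Interferon genes were at few counts. IFNB1 was at 0 in every siControl library, had 0, 3 and 4 counts in siNONO, and was not tested. IFNL1, a type III interferon, had 1, 0 and 0 counts in the siControl libraries against 31, 30 and 38 with siNONO. Its ratio was 96.5, and the 95% counting interval ran from 16.9 to 3851. IFNL2 and IFNL3 had no counts in siControl and were at least 25.8-fold and 24.6-fold higher in siNONO (floor of 3 counts over the group, siNONO counts taken as exact). As IFNL2 and IFNL3 are near-identical copies, their counts are partly shared out by estimate. IFNE rose by 0.76 (adjusted p = 0.021). DESeq2 gave no adjusted p for IFNL1, IFNL2 and IFNL3, and 0.129 for IFNE.

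**Figure D4:**
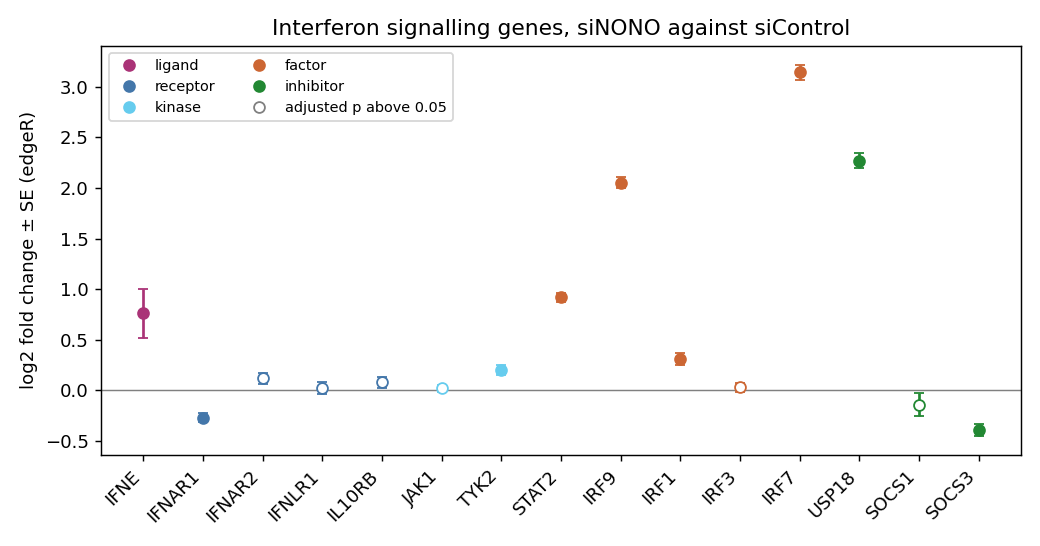
Log2 fold change with SE (edgeR, vertical axis) of 15 signalling genes coloured by role; filled points passed the test, open points did not, and the type III interferons at or near 0 in siControl are left out. IRF9, IRF7 and USP18 lie above 2, while receptors and kinases lie near 0.

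Relatives and partners of the 10 genes were also read: 12 genes, all tested, of which 3 rose, 5 fell and 4 did not pass, with a median of -0.04. Over all genes tested 23.2% were higher and 23.4% lower. Of the 12, 0 moved by 1 or more on the log2 scale. NMI, which binds IFI35, rose by 0.90 ± 0.0867 (log2, SE; edgeR adjusted p = 3.03e-06). IFI27L2, a paralogue 11084 bases from IFI27, rose by 0.32 in edgeR (adjusted p = 0.00447) but did not pass in DESeq2 (adjusted p = 0.0891), and IFI27L1, 990 bases away, was at 0.25 (adjusted p = 0.115). Among the dynamins, the wider family of MX1 and MX2, DNM3 fell by 0.75 (adjusted p = 5.13e-05), DNM2 fell by 0.12, and DNM1, DNM1L and OPA1 did not pass. CMPK1, the cytosolic counterpart of CMPK2, fell by 0.17 (adjusted p = 0.00231), and FKBP5, a binding partner of IFI44, fell by 0.25 (adjusted p = 8.02e-05). By DESeq2 5 of the 12 passed, 1 higher and 4 lower.

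The nearest tested genes on each side of each locus, 28 in all, gave 9 that rose, 4 that fell and 15 that did not pass in edgeR, with a median log2 fold change of 0.07. These counts stand beside the same shares of all genes tested, 23.2% higher and 23.4% lower. By DESeq2 8 passed, 5 higher and 3 lower, where 5227 of all 17000 genes passed. Neighbours were taken by order among tested genes, and some are far from their locus. The farthest, PRKACB-DT, lies 5412251 bases from IFI44, and TTLL7, which fell, lies 5200944 bases from it. At IFI35, VAT1 lies 151 bases away and was at 0.06 (adjusted p = 0.102), and RPL27, 3781 bases away, rose by 0.24 (adjusted p = 0.000114). At BST2, BISPR, a noncoding RNA that starts 56 bases from it on the other strand, had 31, 17 and 10.1 counts in the siControl libraries against 37.88, 24 and 21 with siNONO (log2 fold change 0.54 ± 0.296, SE; adjusted p = 0.156). MVB12A, 92 bases from BST2, rose by 0.19 in edgeR (adjusted p = 0.00612), a call lost in DESeq2 (adjusted p = 0.0568). RNF144A, 19173 bases from RSAD2, rose by 0.42 (adjusted p = 2.69e-05).

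Of the 28 neighbours, 3 differed by 1 or more on the log2 scale. ENSG00000225886 is a noncoding RNA on the plus strand whose body overlaps IFI6. It had 0, 1 and 0 counts in the siControl libraries against 30, 31 and 35 with siNONO (ratio 93.6, 95% counting interval 16.4 to 3735). It is among the neighbours that rose in edgeR, but it entered the tested genes through siNONO. DESeq2 gave no adjusted p for it. Its counts were 0.587%, 0.748% and 0.511% of those of IFI6 in siNONO. The libraries were stranded, but the strand setting of the counting is not given. Whether the counts of the overlapping pair share reads is therefore not known. LINC01814, 1563463 bases from the RSAD2 locus, rose by 1.26 (adjusted p = 0.000142). GIPC2, 481459 bases from IFI44L, had 17, 10 and 8 counts in the siControl libraries against 4, 5 and 6 with siNONO, and did not pass (adjusted p = 0.0524).

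**Figure D5:**
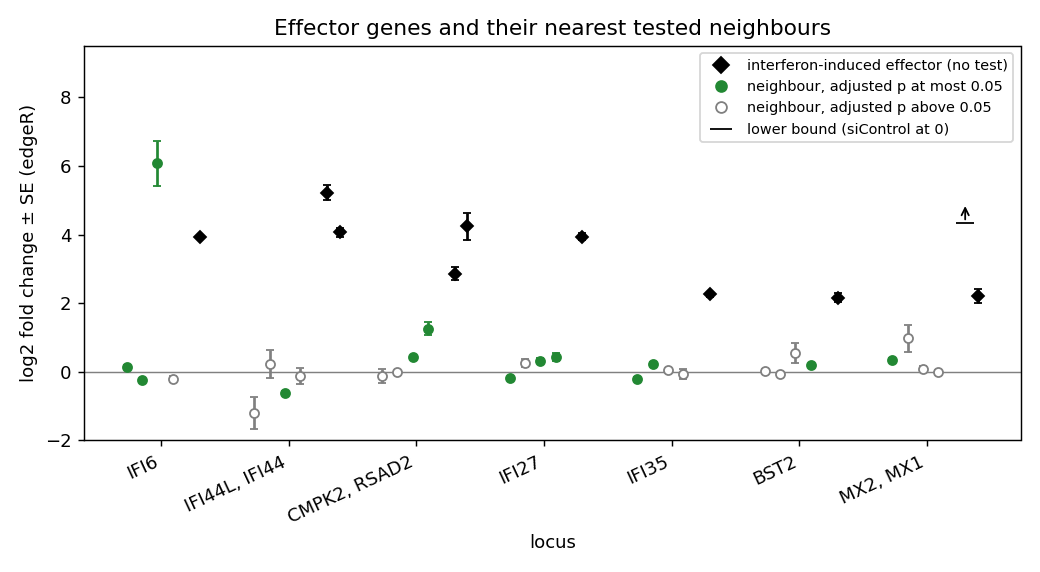
Log2 fold change with SE (edgeR, vertical axis) of the 10 genes (diamonds, MX2 as a lower bound) and of their nearest tested neighbours (circles, filled where the test was passed) at 7 loci. Apart from the noncoding RNA that overlaps IFI6, which had 1 count in siControl, the neighbours lie between -1.21 and 1.26 and the 10 genes above 2.

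Among genes outside the 10 whose mean log2 CPM was 0 or higher, those whose differences within the 3 Sets lay closest to the median of the 10 were OASL, IFIT3, BATF2, IFIT1 and LAMP3. The measure was the root mean square distance over the 3 Sets in log2 CPM. It was 0.161 for OASL, 0.474 for IFIT3, 0.503 for BATF2, 0.522 for IFIT1 and 0.732 for LAMP3. OASL, with 4.05, 3.92 and 4.08 in Sets 1 to 3, lay above the median of the 10 (3.95, 3.71 and 3.92) in each Set.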

How the data were processed

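Total RNA was isolated with TRIzol and libraries were prepared with the TruSeq Stranded mRNA kit. Reads were trimmed with sickle by the authors, who used STAR for alignment to GENCODE transcripts of GRCh37 and quantified genes with RSEM 1.3.1. The values deposited by the authors are expected counts, TPM, FPKM and a mean transcript length per gene. FPKM, deposited by the authors, was not used.

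The 10 genes and all lists were chosen with earlier results of these data known. Counts were rounded and tested with edgeR 4.0.16 (quasi-likelihood, TMM, filterByExpr, R 4.3.3), with Set as a block. The study added batch to its model without saying what the batch was. That Set is this batch is an assumption made here. P-values were adjusted by Benjamini-Hochberg over 17000 genes and 0.05 was the threshold. The SE of a log2 fold change is not an edgeR output. It was back-calculated as the absolute log2 fold change divided by the square root of the quasi-likelihood F statistic, and is approximate. The biological coefficient of variation was 3.51%. Deviations of same-numbered libraries correlated (r = 0.331, 0.179 and 0.423 over 12060 genes), and Sets were taken as pairs. Differently numbered libraries had r between -0.342 and 0.136. Deviations were taken from each group's own mean, so positive same-numbered values push the differently numbered ones below 0 by construction. The contrast between them is therefore no separate support for the pairing. The 0.179 of Set 2 was little above the 0.136 of siControl Set 1 with siNONO Set 2. CPM used TMM-scaled library sizes. The code was tested on simulated data. Alternatives were DESeq2 1.42.0, limma 3.58.1 on log2(TPM + 1) and log2(TPM + 0.1), other scaling and filters, no block, and each library left out. Genes named outside the 10 were NONO, genes of the lists where a result turned on them, and the 5 nearest by pattern. A further gene of the pathway was taken out of the signalling list and is not reported here. Gene coordinates are from GENCODE v44 on GRCh37.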

Additional observations from a re-analysis of the deposited data

How the results depend on the processing

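Over the alternatives none of the 127 values computed for the 10 genes changed direction. These are refits of the same libraries for genes selected on this contrast, so nothing is read from that. In edgeR 7924 genes passed (3939 higher, 3985 lower), beside 5227 by DESeq2 (2612 higher, 2615 lower), 5257 by limma on log2(TPM + 1) (1643 higher, 3614 lower) and 5250 on log2(TPM + 0.1) (1638 higher, 3612 lower), and 6497 to 7653 with a library left out. The median log2 fold change of the 10 genes, 3.93, was 2.86 with at least 10 counts required in every library, which leaves 7 genes. It was 3.87 to 4.02 with a library left out, 1.79 on log2(TPM + 1) and 2.59 on log2(TPM + 0.1). On the TPM scales a pseudocount shrinks low genes by construction. TPM also divides by transcript length, which differed between the groups for some of the genes. The part of each was not tested. On log2(TPM + 1) MX1 was at 0.62, MX2 at 0.45 and RSAD2 at 1.09. Without the replicate block, 6164 genes passed, the median of the 10 was 3.96, and 5 of the 12 relatives passed, as by DESeq2 (main value 8, and 5 to 7 with a library left out, 5 without siControl replicate 1 or siNONO replicate 1). The cause was not tested. Of the 28 neighbours 8 passed by DESeq2 against 13. Precision is limited in siControl, where IFI44L, MX2 and RSAD2 had under 10 counts a library.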
